A study of Rattus norvegicus with 27 samples.

Results

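The 4 opioid receptor genes Oprm1, Oprd1, Oprk1 and Oprl1 were followed across the medial prefrontal cortex (mPFC) of 27 rats. They were found by their rat gene symbols, each symbol matched 1 row, and the 4 rows belong to a table of 36865 rows. RNA of 27 male Wistar rats, labelled as polyA RNA, had been sequenced with 1 library per rat, and the numbers of reads counted on each gene were deposited. All 27 rats form 1 group, without a control group. Each rat had passed through repeated light-dark, open field and elevated plus-maze tests and was taken in a resting state from its home cage 2 weeks after the last test, and the labels give learned helplessness as the treatment of all of them. Bilateral mPFC pieces held the infralimbic, prelimbic and anterior cingulate areas together, so the values are averages over mixed cells. In such bulk tissue, fewer cells of a type and less RNA per cell cannot be told apart. The study used these libraries to relate gene expression to anxiety scores. Scores of single rats were not used here, so the question is how far the receptor genes differ between rats and what else differs with them.

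Opioid receptors are G protein-coupled receptors that lower neuronal excitability. They act through inhibitory Gi/o proteins, which reduce cyclic AMP synthesis by adenylyl cyclases, open potassium channels of the Kcnj3, Kcnj6 and Kcnj9 type and close presynaptic calcium channels. Oprm1 encodes the mu receptor, the main target of morphine, Oprd1 the delta receptor, Oprk1 the kappa receptor and Oprl1 the nociceptin receptor, which shares the fold of the others but does not bind classical opioids with high affinity. Their peptides are cut from the precursors Penk (enkephalins), Pdyn (dynorphins), Pomc (beta-endorphin among others) and Pnoc (nociceptin). In the prefrontal cortex these receptors are known on interneurons, on pyramidal cells and on incoming axons.

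Promoter sequences are shown for the receptors that had one in the table used (RefSeq, build GRCr8), so that the starts of a receptor gene with almost no reads and of one with reads in every library can be read side by side. Entries were held for 2 of the 4 genes, and each window runs from 250 bases before to 50 bases after a transcript start. Both known Oprm1 windows (chr1:45585733-45586032 and chr1:45565121-45565420, plus strand) and the Oprd1 window (chr5:149624950-149625249, minus strand) are given 5′ to 3′ on the gene's strand, with capitals for a GC box or an E-box.
Oprm1, first window: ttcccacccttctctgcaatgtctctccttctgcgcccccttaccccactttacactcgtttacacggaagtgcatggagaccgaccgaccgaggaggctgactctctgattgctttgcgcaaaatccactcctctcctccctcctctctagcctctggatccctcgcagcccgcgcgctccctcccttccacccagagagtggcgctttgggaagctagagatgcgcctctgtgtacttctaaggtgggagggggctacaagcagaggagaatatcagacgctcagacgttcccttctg
Oprm1, second window: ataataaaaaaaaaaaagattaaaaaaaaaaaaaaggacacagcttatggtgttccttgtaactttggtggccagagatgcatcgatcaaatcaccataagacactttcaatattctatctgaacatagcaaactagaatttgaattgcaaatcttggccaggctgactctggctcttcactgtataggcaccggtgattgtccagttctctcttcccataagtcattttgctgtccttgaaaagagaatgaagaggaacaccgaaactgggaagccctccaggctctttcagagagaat
Oprd1: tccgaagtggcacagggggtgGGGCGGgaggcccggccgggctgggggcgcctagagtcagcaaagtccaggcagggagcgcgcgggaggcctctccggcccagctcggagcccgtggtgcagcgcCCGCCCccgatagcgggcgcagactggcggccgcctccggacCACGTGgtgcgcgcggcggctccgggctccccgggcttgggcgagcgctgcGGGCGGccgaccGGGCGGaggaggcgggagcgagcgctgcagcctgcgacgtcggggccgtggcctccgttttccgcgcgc
The Oprd1 window was 79.0% G and C with 44 CpG pairs, against medians of 51.7% and 7 over 33469 windows of this length. It held the GC box GGGCGG 4 times, counted on both strands, and the E-box CACGTG once. Of all windows, 33.1% held the former and 6.42% the latter. The Oprm1 windows were 57.7% and 39% G and C with 15 and 3 CpG pairs. Neither held those motifs, and none of the 3 windows held the core TGACG of a cyclic AMP response element (21.2% of all windows do), the TATA box TATAAA (14.2%) or the CCAAT box (37.5%). These matches are descriptions of the sequence only.

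Library totals lay between 4907255 and 12771309 counted reads (median 8168801). The 16 libraries numbered up to 31 had totals of at most 8568317 and the 11 from number 32 had at least 9404220, and these are called the depth blocks below. Markers of cortical tissue were present, with summed levels of 7 excitatory neuron markers between 32540 and 47471 normalized counts and of 13 interneuron markers between 11934 and 16377. Of the latter, Sst and Dlx6 stood below a mean count of 10. Summed striatal markers lay between 2515 and 3584. Oligodendrocyte markers ranged more widely, from 16680 to 60092 normalized counts around a median of 27467, with the highest sum in library 3, and meningeal markers ranged from 951 to 15764. Library 3 also stood lowest in 3 of the receptor genes, so the calls with Oprd1 and Oprl1 are also given without it.

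The mu receptor gene was close to undetected in this tissue. Oprm1 received 93 reads over all 27 libraries, between 0 and 8 per library with a median of 4. Libraries 6 and 52 had no read, and 13 of 27 libraries had 3 reads or fewer. For a library without a read, 3 counts set the upper limit, 5.19 normalized counts in library 6 and 2.30 in library 52 (counting error only). Normalized counts, that is reads divided by the DESeq2 size factor of the library, ran from 0 through a median of 2.90 to 8.38 in library 15, with a mean of 3.40 ± 2.14 (SD, n = 27). Oprm1 failed the filter of a mean count of at least 10 that the tests across genes used, so 3 of the 4 members passed it.

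The delta receptor gene was measured in every library and differed widely between libraries. Oprd1 had 13 to 103 reads, and its normalized counts ran from 19.9 in library 3 through a median of 48.5 to 85.1 in libraries 12 and 51, with a mean of 47.6 ± 14.8 (SD, n = 27). Libraries 12 and 51 stood apart at the top, since the next was library 34 at 63.6. At the bottom library 3 stood below library 19 at 30.7.

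The kappa receptor gene was lower in reads and had a like relative spread. Oprk1 had 6 to 47 reads, with normalized counts from 9.18 in library 3 through a median of 20.7 to 38.9 in library 51 and a mean of 21.2 ± 6.92 (SD, n = 27). Library 9 was close to the top at 37.0, while library 17 stood near the bottom at 10.1. Library 51 was thus highest in both Oprd1 and Oprk1.

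The nociceptin receptor gene had the most reads and the steadiest level. Oprl1 had 146 to 443 reads, and normalized counts ran from 223 in library 3 through a median of 299 to 417 in library 12, with a mean of 302 ± 40.5 (SD, n = 27). Its highest value was 1.87 times the lowest. Lengths of the transcripts were not given, so the levels of the 4 genes were not ranked against each other.

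**Figure D1:**
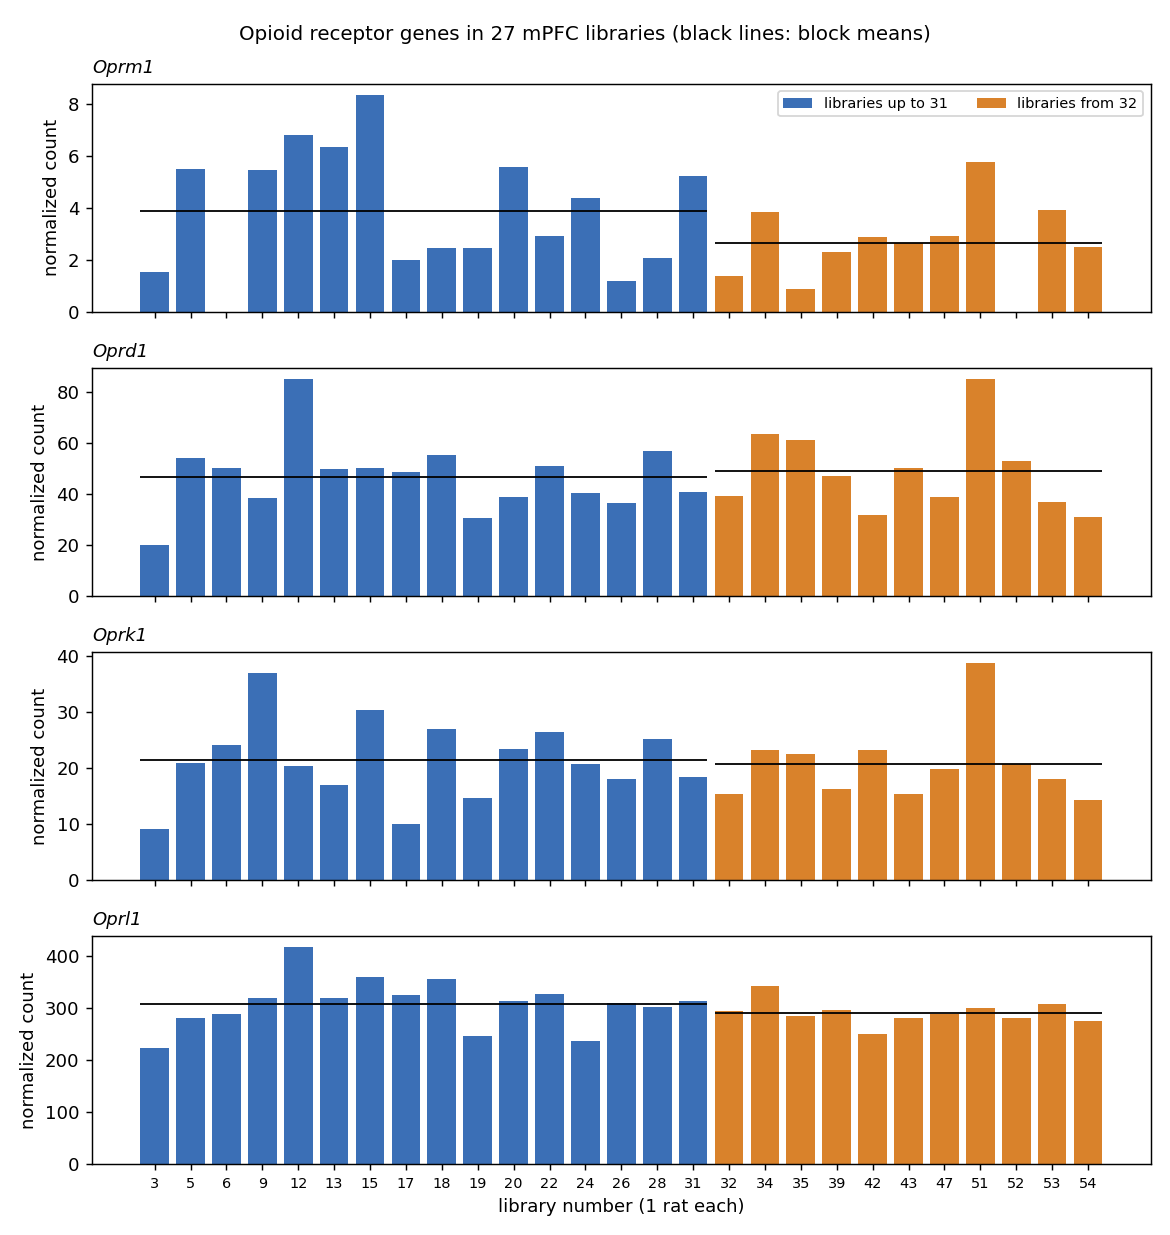
Normalized counts (y axis, from 0) of each receptor gene in each of 27 libraries (x axis, library number, 1 rat each). Bars are coloured by depth block and black lines mark the block means. Library 3 is lowest in Oprd1, Oprk1 and Oprl1, libraries 12 and 51 reach 85.1 in Oprd1, and Oprm1 has no bar in libraries 6 and 52.

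Differences between libraries exceeded read counting for 3 of the 4 receptor genes. With 1 library per rat, differences between rats and those of dissection or preparation cannot be told apart. A chi-square dispersion test against Poisson counts gave an adjusted p of 1.02e-13 for Oprd1, 0.00043 for Oprk1 and 2.05e-15 for Oprl1. Most genes behave so, since 89.8% of the 11730 genes that passed the filter were called. Read counting alone accounted for 22.2% of the variance in Oprd1, 45.4% in Oprk1 and 18.9% in Oprl1, against a median of 24% over those genes. For Oprm1 it was 75.9%, and Oprm1 was not called among the 15078 genes with any count (adjusted p = 0.159, chi-square dispersion test), of which 74.0% were. The SD of log2(normalized count + 1) was 0.44 for Oprd1 and 0.45 for Oprk1, higher than in 88.5% and 89.6% of genes tested, many of which have more reads. Oprl1 had an SD of 0.19, as had the median gene.

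Among the peptide precursors, Penk had 708 ± 107 normalized counts, Pdyn 361 ± 60.7, Pomc 19.4 ± 6.93 and Pnoc 72.8 ± 10.3 (SD, n = 27 each). The spread of Penk, Pdyn and Pomc was called, with counting noise of 6.36%, 10.1% and 41.5% of the variance. Pnoc was not called (adjusted p = 0.0755, chi-square dispersion test), and counting made up 71.1% of its variance.

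**Figure D2:**
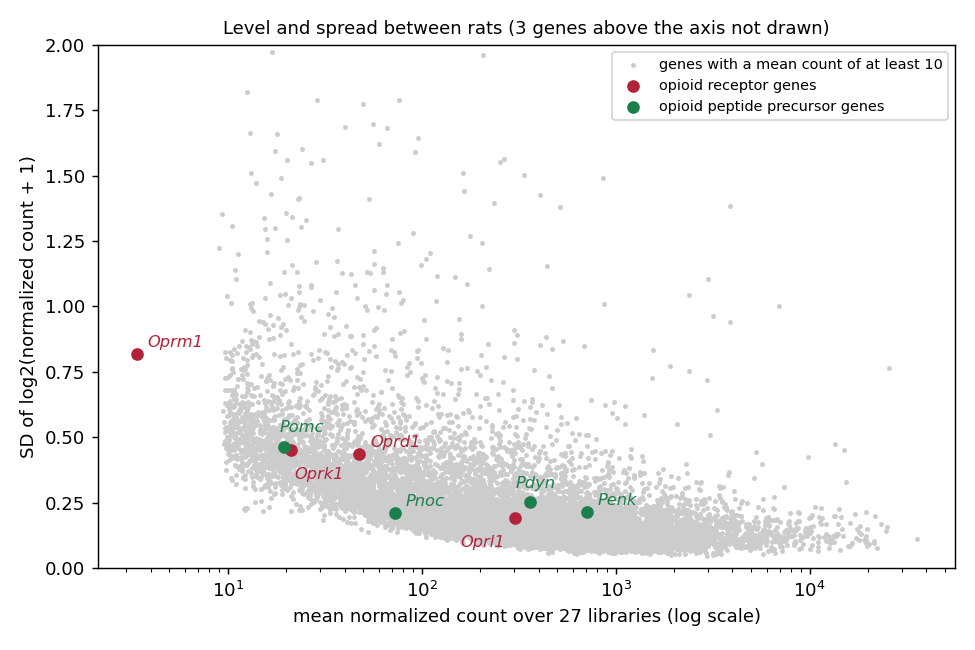
Mean normalized count (x axis, log scale) against the SD of log2(normalized count + 1) over 27 libraries (y axis). Grey points are the 11730 genes that passed the filter, red points the receptor genes and green points the peptide precursor genes, and 3 genes above an SD of 2 are not drawn. Oprd1 and Oprk1 have a higher SD than most grey points of all levels, Oprl1 lies at 0.19 within the cloud, and Oprm1 to the left of it.

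None of the receptor genes was called between the depth blocks by edgeR's quasi-likelihood test, in which 18.3% of 11730 genes were. The log2 difference, later minus earlier libraries, was 0.07 ± 0.16 (SE) for Oprd1 (adjusted p = 0.826), -0.05 ± 0.18 for Oprk1 (adjusted p = 0.879) and -0.08 ± 0.07 for Oprl1 (adjusted p = 0.481). Oprm1 entered only the fit with the filter lowered to a mean count of 1 (13387 genes), in which 15.7% were called, with -0.57 ± 0.34 (adjusted p = 0.291). Oprl1 had block means of 309 ± 48.5 (SD, n = 16) and 291 ± 23 (SD, n = 11) normalized counts.

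The delta and nociceptin receptor genes were positively related across rats, with exceptions such as library 51, highest in Oprd1 and 14th from the lowest in Oprl1, and the call of this relation in the fit over all genes depended on library 3. In edgeR's quasi-likelihood fit over all genes with 1 receptor gene as a continuous covariate, Oprl1 rose with Oprd1 by 0.13 ± 0.03 (log2 per SD of Oprd1, SE, adjusted p = 0.019), and Oprd1 rose with Oprl1 by 0.27 ± 0.07 (adjusted p = 0.0129). Spearman's rho was 0.451 (p = 0.0187) and Pearson's r 0.651 (p = 0.00031), from two-sided permutation tests of log2(normalized count + 1) with n = 27. Of all genes tested, 2.46% had a rho at least as high with Oprd1 and 9.35% with Oprl1. Within the blocks rho was 0.529 (permutation p = 0.0375, n = 16) and 0.464 (permutation p = 0.152, n = 11), and r was 0.778 and 0.502. Without libraries 51 and 3, the farthest from the Oprd1 median, r was 0.626. Without library 3 alone, rho was 0.385 (permutation p = 0.0527) and the adjusted p of the edgeR fit 0.469 for Oprl1 on Oprd1 and 0.0568 for Oprd1 on Oprl1. The size of the relation fell less, with an r of 0.549 (permutation p = 0.00381) and slopes of 0.10 ± 0.03 and 0.21 ± 0.07 without that library. Leaving out library 12, the highest in Oprl1, gave an adjusted p of 0.0916 for Oprd1 on Oprl1.

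The delta and kappa receptor genes had the highest rho of the 6 pairs. It was 0.527 (p = 0.00505) with an r of 0.534 (p = 0.00439, permutation tests, n = 27), and rho stayed past the threshold whichever single library was left out (0.471 to 0.617). A rho this high or higher was found in 0.742% of genes tested with Oprd1 and 0.367% with Oprk1. Within blocks rho was 0.465 (permutation p = 0.0717, n = 16) and 0.582 (permutation p = 0.0659, n = 11). Without libraries 51 and 3 the r fell to 0.230, so the size of r rested on the highest and the lowest rat. In the edgeR fit Oprk1 changed by 0.24 ± 0.08 (log2 per SD of Oprd1, adjusted p = 0.0523) and was not called, though it was called with DESeq2 (adjusted p = 0.0486), with the depth block as a further term (0.0461) and without libraries 12 and 20 (0.0444). Without library 3 its adjusted p was 0.507 and without library 51 it was 0.207, and over all 27 libraries left out in turn the range was 0.0277 to 0.507. Fitted the other way, Oprd1 on Oprk1 gave 0.23 ± 0.07 (adjusted p = 0.419).

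The other 4 pairs were weaker. Oprk1 and Oprl1 had a rho of 0.420 (permutation p = 0.0305) and an r of 0.385 (permutation p = 0.0487), and the r without libraries 17 and 3 was 0.327. Such a rho was reached by 2.24% of genes tested with Oprk1 and by 11% with Oprl1. Their rho was 0.435 within the earlier block (permutation p = 0.0933) and 0.291 within the later one (permutation p = 0.383). Leaving out any 1 of 7 libraries (3, 15, 18, 19, 22, 43 or 54) brought the p of rho to between 0.0509 and 0.0802, and the edgeR fits of this pair gave adjusted p of 0.213 and 0.515. Oprm1 and Oprl1 had a rho of 0.416 (permutation p = 0.0306) and an r of 0.370 (permutation p = 0.0567), and any 1 of 6 libraries (3, 12, 13, 15, 20 or 52) decided that call of rho. It was reached by 7.20% of genes tested with Oprm1 and by 11.3% with Oprl1. Their rho was 0.462 and 0.518 within the blocks (permutation p = 0.0735 and 0.107), and r without libraries 6 and 52 was 0.414. Oprm1 had a rho of 0.326 with Oprk1 (permutation p = 0.0975, r 0.284 with permutation p = 0.149) and of 0.165 with Oprd1 (permutation p = 0.404, r 0.170 with permutation p = 0.392). Without libraries 6 and 52 these r were 0.481 and 0.344. Within the blocks rho was 0.271 and 0.373 with Oprk1 and 0.279 and 0.0273 with Oprd1. Leaving out library 6 brought the rho of Oprm1 and Oprk1 to 0.415 (permutation p = 0.0371). With the mu receptor gene at 8 reads or fewer per library, these rank orders turn on single reads.

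**Figure D3:**
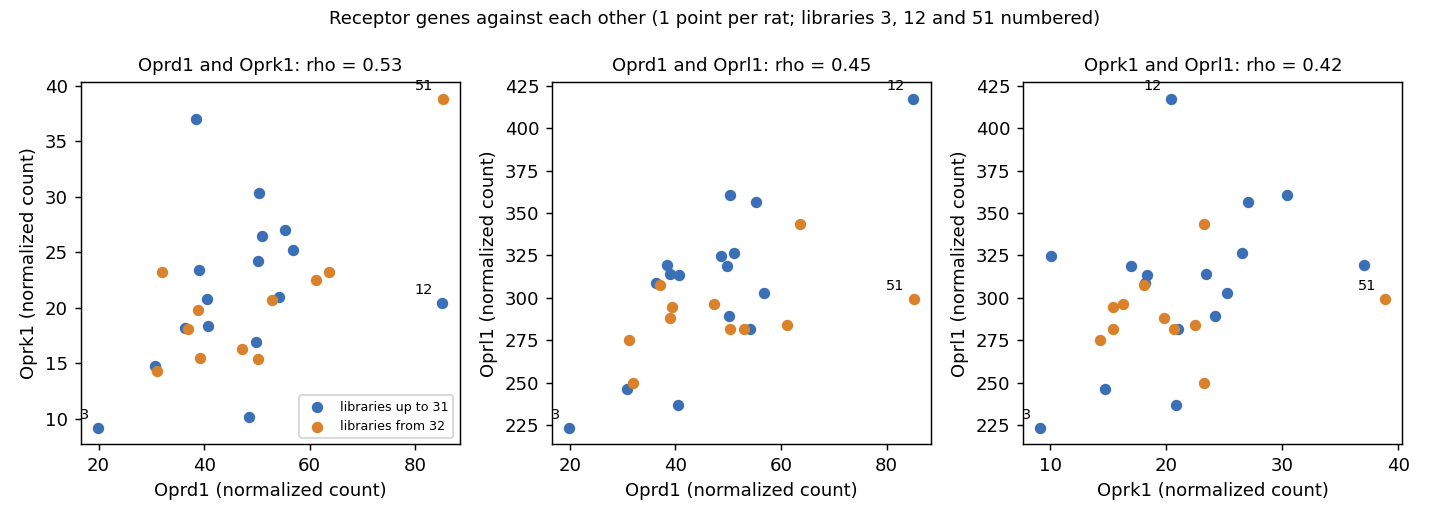
Normalized counts of Oprd1, Oprk1 and Oprl1 against each other, 1 point per rat, coloured by depth block, with libraries 3, 12 and 51 numbered and Spearman's rho above each panel. Library 3 is the lowest point on both axes of every panel, while the top is held by library 51 in Oprd1 and Oprk1 and by library 12 in Oprl1.

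Many genes followed the nociceptin receptor gene. Of 11729 genes, 8.07% (947) rose with Oprl1 and 5.28% (619) fell with it (edgeR, adjusted p under 0.05). Without library 3 these came to 603 genes in both directions, 5.14%, and without library 12 to 417, 3.56%. With the depth block as a further term 1150 rose and 1078 fell. Among the 9813 genes ranked (mean count of 50 or more), Cnr1, the cannabinoid receptor of axon terminals, was most like Oprl1, with a rho of 0.766 (0.759 without library 3) and 2733 ± 389 normalized counts. Next came Rab2a, a GTPase of the secretory pathway (0.760), Immt of the inner mitochondrial membrane (0.758), Arfgef1, an exchange factor of the Golgi (0.756) and Syt4, a synaptotagmin (0.742). The most opposed were Cdc42ep1 (-0.815), Igfbp6, which binds insulin-like growth factors (-0.808), and Rnpepl1, an aminopeptidase-like gene (-0.790). All 8 were called, with adjusted p of the edgeR test between 0.00139 and 0.00639, and all 8 were called without library 3 (0.00182 to 0.0262). Within the later block their rho was weaker for several, such as 0.355 for Rab2a and -0.327 for Rnpepl1 (n = 11).

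Genes following the delta receptor gene depended on 1 rat. With all 27 libraries 6.43% (754 of 11729) rose with Oprd1 and 5.11% (599) fell. Without library 3 no gene was called by edgeR, 0%, with 1104 at an unadjusted p under 0.05. Leaving out library 12 gave 747 genes, 6.37%, library 19 gave 379 and library 42 gave 2045. Zbtb46, a zinc finger gene, had the highest rho with Oprd1 in the ranked set (0.705), followed by Cyth3, an exchange factor for Arf GTPases (0.685), Stk11ip (0.656), Gpatch2l (0.651) and Dhx8, a splicing helicase (0.640). Rab5c of early endosomes (-0.705), Cgrrf1 (-0.691) and Ube2r2, a ubiquitin-conjugating enzyme (-0.686) stood opposite. Rank correlations changed little without library 3 (0.669 for Zbtb46 and -0.669 for Rab5c), while the adjusted p of these 8 genes, 0.00446 to 0.0325 with all libraries, became 0.181 to 0.471.

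No gene followed the kappa receptor gene in edgeR's test (0%, with 1140 of 11729 genes at an unadjusted p under 0.05), whereas DESeq2 called 13. The most alike by rank were Dcx, a microtubule protein of young neurons (rho 0.682), Alg11, a glycosylation enzyme (0.662), Carnmt1 (0.622), Gcfc2 (0.619) and Cyth1 (0.619), and the most opposed Maip1 (-0.756), Pdxp (-0.700) and Asb6 (-0.691). For the mu receptor gene 16 genes were called, 0.136% of 11730. DESeq2 called 43, and none was called by edgeR with the depth block as a further term (898 genes at an unadjusted p under 0.05). Dcbld2 (rho 0.80), Qser1 (0.765), Slc8a1, a sodium-calcium exchanger (0.760), Lrp6, a Wnt coreceptor (0.744) and Map2, a dendritic microtubule protein (0.730) ranked highest, and Cdk5rap3 (-0.721), Dda1 (-0.680) and Extl1 (-0.673) lowest. Of these 8 only Qser1 was called (adjusted p = 0.0357, edgeR).

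None of the 4 peptide precursor genes was called with any of the 4 receptor genes. In a list this short few calls would be counted at the shares over all genes given above, 8.07% rising and 5.28% falling with Oprl1 and less with the others. Pnoc and Oprl1, precursor and receptor of nociceptin, had a rho of 0.02 over 27 libraries, -0.19 in the earlier block and 0.76 in the later one (the difference between blocks was not tested, adjusted p = 0.900 for all libraries, edgeR). Pdyn and Oprk1 had a rho of 0.08 (adjusted p = 0.762, edgeR), and Penk and Oprd1 one of -0.06 (adjusted p = 0.915, edgeR). Pomc had the lowest unadjusted p, 0.0343 with Oprd1, at a rho of -0.30 (adjusted p = 0.135, edgeR).

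Of 4 enzymes that process peptides, 3 rose with the nociceptin receptor gene, where 8.07% of all genes rose. They were Pcsk1 and Pcsk2, which cut the precursors, and Pam, which amidates peptide ends, with slopes of 0.17 ± 0.04, 0.13 ± 0.03 and 0.07 ± 0.02 (log2 per SD, SE), and the median rho of the 4 was 0.55 against -0.02 over all genes tested. The carboxypeptidase Cpe was not called (rho -0.11). Without library 3 Pcsk1 and Pcsk2 were called, without library 12 1 of the 4 was, and without libraries 12 and 20 none was. With Oprd1 only Pcsk2 rose (0.11 ± 0.03). None of the 7 degrading enzymes tested changed with Oprl1, and Dpp3, a dipeptidyl peptidase that cleaves enkephalins, rose with Oprd1 (0.08 ± 0.02).

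Signalling partners were called with Oprl1 or Oprd1 in no more than 2 genes of each list. Gnai1, a Gi alpha subunit, rose with Oprl1 (0.11 ± 0.03 log2 per SD, SE), and Gnai2 fell with both Oprl1 (-0.10 ± 0.03) and Oprd1 (-0.11 ± 0.03). The potassium channel subunit Kcnj9 rose with both, by 0.11 ± 0.04 with Oprl1 and 0.13 ± 0.03 with Oprd1, Kcnj3 rose with Oprl1 (0.17 ± 0.05) and Cacna1b, the pore of N-type calcium channels, with Oprd1 (0.10 ± 0.03). Adcy2 rose with Oprl1 (0.07 ± 0.02) and Adcy1 with Oprd1 (0.45 ± 0.14). Grk3, a kinase that phosphorylates active receptors, and Arrb1, a beta-arrestin, rose with Oprd1 (0.24 ± 0.06 and 0.31 ± 0.10). Of 8 RGS genes, whose proteins speed the switching off of Gi/o, Rgs4 rose with Oprl1 (0.10 ± 0.03) and Rgs8 with Oprd1 (0.14 ± 0.04). Over the 8 pathway lists together, 8 of 46 genes tested rose with Oprl1 and 1 fell (17.4% and 2.17%), and the counts with Oprd1 were the same, 8 and 1. Beside this stand the 8.07% of all genes that rose and 5.28% that fell with Oprl1, and 6.43% and 5.11% with Oprd1. Without library 3 none of the Oprd1 calls held, and 3 of the 46 genes rose with Oprl1, namely Pcsk1, Pcsk2 and Rgs4, while Gnai1, Gnai2, Kcnj3, Kcnj9 and Adcy2 were no longer called (adjusted p = 0.119 to 0.290, edgeR). Without library 12, 2 rose with Oprl1, without libraries 12 and 20 none did, and with the depth block as a further term 14 did. Of all 11729 genes, 351 rose with Oprl1 without library 3, 239 without library 12 and 92 without libraries 12 and 20. With the depth block 1150 did. No pathway gene was called with Oprk1 or Oprm1.

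Several glial, vascular and meningeal markers fell with the nociceptin receptor gene, where 5.28% of all genes fell. Of 7 oligodendrocyte markers 4 fell with Oprl1, among them Mag (-0.22 ± 0.06 log2 per SD, SE), Mbp (-0.25 ± 0.07) and Mog (-0.18 ± 0.06), all of the myelin sheath, and the median rho of the list was -0.49. None of the 7 was called without library 3, which had the lowest Oprl1 and the highest oligodendrocyte sum, nor without library 12. Their rank correlations without library 3 were -0.454 for Mag, -0.448 for Mbp and -0.431 for Mog, against -0.512, -0.507 and -0.492 with all libraries. Genes falling with Oprl1 numbered 619 of 11729 with all libraries, 252 without library 3 and 178 without library 12. Endothelial and mural markers fell in 3 of 7, led by Cldn5 of endothelial junctions (-0.16 ± 0.03, called also without library 3), with Pecam1 (-0.16 ± 0.05, adjusted p = 0.172 without library 3 in edgeR) and Pdgfrb (-0.14 ± 0.04). Of 7 meningeal fibroblast markers, Lum (-0.40 ± 0.09), Dcn (-0.39 ± 0.11) and Slc6a13 (-0.52 ± 0.16) fell, and the same 3 were called without library 3. None of the 7 oligodendrocyte, 7 meningeal or 7 microglia markers changed with Oprd1, where only Cldn5 fell in the vascular list (-0.12 ± 0.04). Of all genes 6.43% rose and 5.11% fell with Oprd1.

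The neuronal and astrocyte lists gave 1 or 2 calls each, or none. With Oprl1 rose Gad1 and Gad2, the GABA-synthesizing enzymes and 2 of 11 interneuron markers tested (0.06 ± 0.02 and 0.26 ± 0.07), Erbb4, a receptor of parvalbumin interneurons with 16.5 ± 11.6 normalized counts (0.55 ± 0.15), Rasgrf2 of upper layers (0.25 ± 0.06) and Synpr of the claustrum list (0.13 ± 0.03). In the claustrum and layer 6b list Ccn2 fell (-0.27 ± 0.07), as did Ppp1r1b of the striatal list (-0.10 ± 0.03), while the astrocyte glutamate transporter Slc1a2 rose (0.32 ± 0.09). Over the 7 astrocyte markers, rho with Oprl1 ran from -0.34 to 0.51 with a median of -0.09. With the depth block as a further term 1 of them rose and 1 fell. Without library 3 Erbb4, Rasgrf2, Ccn2 and Slc1a2 were called, while Gad1, Gad2, Synpr and Ppp1r1b were not (adjusted p = 0.0544 to 0.162, edgeR). Without library 12 no interneuron, parvalbumin, upper-layer, striatal or astrocyte marker was called with Oprl1. With Oprd1 rose Gad2 (0.26 ± 0.07), Rasgrf2 (0.22 ± 0.07) and Pde10a of striatal neurons (0.25 ± 0.06), and none of these was called without library 3. Over the 9 striatal markers, rho with Oprd1 ran from -0.43 to 0.47 with a median of -0.01, and with the depth block 1 rose and 1 fell. In all, 7 of 95 marker genes rose (7.37%) and 12 fell (12.6%) with Oprl1, beside 8.07% and 5.28% of all genes. Markers rising and falling with Oprl1 came to 4 and 6 without library 3, where 351 and 252 of all 11729 genes did. Without library 12 they came to 1 and 5 (239 and 178 of all genes), and without libraries 12 and 20 to 0 and 4 (92 and 101). With the depth block as a further term they came to 9 and 15 (1150 and 1078). With Oprd1 4 rose (4.21%) and 1 fell (1.05%), beside 6.43% and 5.11% of all genes. With the depth block these came to 4 and 3, beside 887 and 772 of all genes. No deep-layer marker, no microglia marker and no immediate early gene was called with any receptor gene, although library 12, highest in Oprl1, had the highest immediate early sum (8153 normalized counts against a median of 4337). With the depth block as a further term the microglia markers Aif1 and C1qa fell with Oprl1 (adjusted p = 0.0433 and 0.0357, edgeR) and the immediate early gene Egr1 rose (adjusted p = 0.0266), all 3 named after their values were seen. The part of tissue make-up in these relations was not tested.

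**Figure D4:**
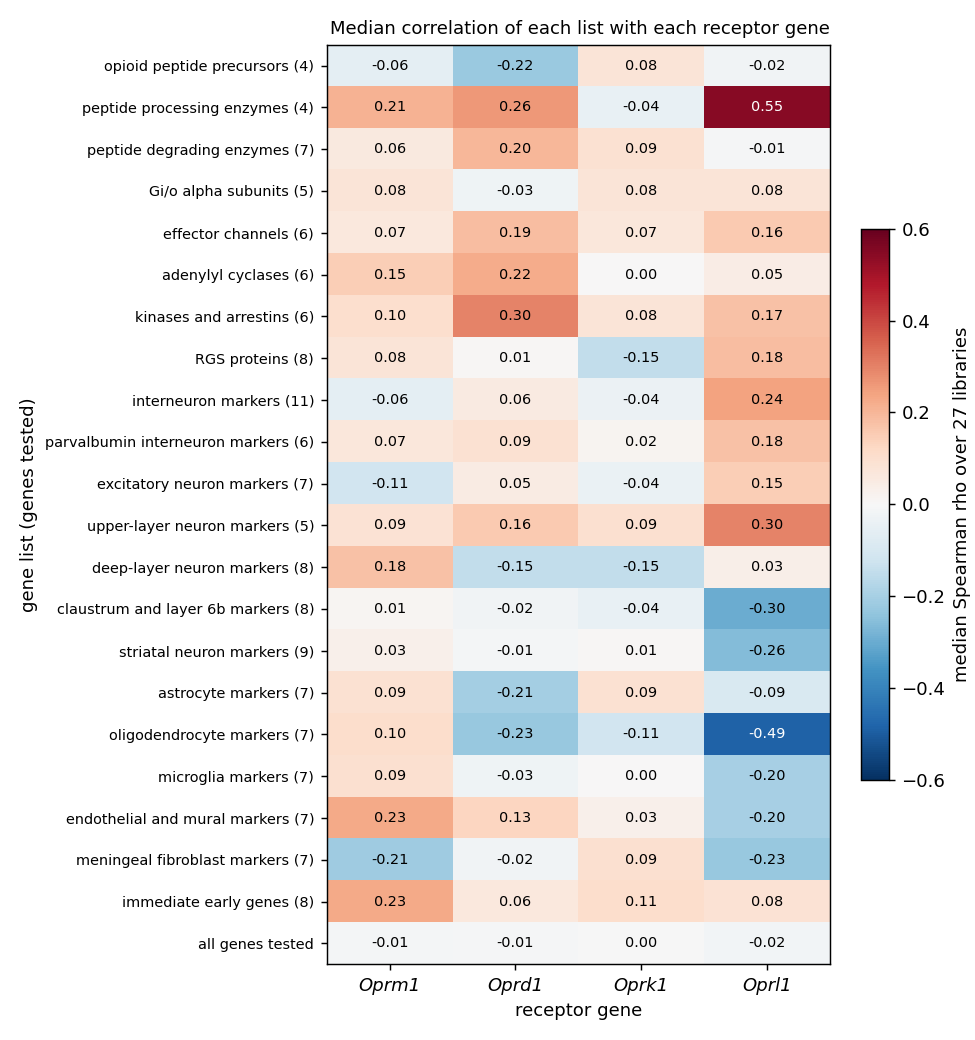
Median Spearman's rho over 27 libraries (colour and printed value) of the tested genes of each list (rows, number of genes tested in brackets) with each receptor gene (columns). Oprl1 stands at 0.55 with the processing enzymes and -0.49 with the oligodendrocyte markers, and the row of all genes tested lies near 0 for every receptor gene.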

How the data were processed

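RNA of 27 mPFC libraries, 1 per rat, had been read as single reads. Per the labels the tools named were Trimmomatic, STAR and HTSeq, without versions, and the authors deposited raw counts per gene, without normalization. The genome build and strand setting are not given in the sources used here, and 436 rows are split by locus, so reads of overlapping genes or close copies are uncertain. The paper and the labels differ in the library kit and in the section sampled.

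Gene IDs were named from the RefSeq table of GRCr8, which gave 27825 of 36865 rows a symbol. Counts were divided by DESeq2 1.42.0 size factors for the levels. edgeR 4.0.16 (quasi-likelihood, TMM, mean count of at least 10, Benjamini-Hochberg over all genes tested, threshold 0.05) tested the depth blocks and the z score of each receptor gene as a covariate, and DESeq2's Wald test was the alternative. A covariate measured with counting noise weakens a fitted slope. Dispersion was tested with chi-square against Poisson, and rank correlations with 100000 permutations. Libraries 12 and 20 were left out together as an alternative, since earlier results of these data had set them apart by ribosomal RNA. The code was tested on simulated data. Limits of 3 counts cover counting error only, since reads carry no molecular identifiers. Labels call each library a separate rat. Other software was R 4.3.3 and Python 3.11.15 (matplotlib 3.10.9, pandas 2.3.3, scipy 1.17.1, numpy 2.4.6).

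The members and gene lists were chosen with earlier results of these data known. Named genes are the receptors, the precursors, the 5 genes highest and 3 lowest in rho for each receptor (mean count of at least 50), and up to 3 called genes of each list with the highest absolute rho. Of 154 list genes, 2 (Btbd11 and Smim32) were not matched in the table. Not analysed here were anxiety scores. One called gene of the marker lists is counted but not reported by name here.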

Additional observations from a re-analysis of the deposited data

How the results depend on the processing

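Apart from leaving out 1 library, 159 recomputed values kept their direction and their side of the threshold, 3 lost and 3 gained significance, and 9 counts of genes moved by more than 1.5 times. The spread beyond counting and the block tests of the receptor genes were among the values that kept both. Without libraries 12 and 20 the rho of Oprm1 and Oprl1 was 0.310, the slope of Oprd1 on Oprl1 0.22, and the genes following Oprm1, Oprd1 and Oprl1 numbered 0, 854 and 193. With the depth block regressed out, the rho of Oprk1 and Oprl1 was 0.355. Genes following Oprm1 numbered 43 with DESeq2, 0 with the depth block as a further term, and 2 with that term and a mean count of at least 1. Genes following Oprk1 numbered 13 with DESeq2 and 5 with a mean count of at least 1, also with the depth block. The slope of Oprk1 on Oprd1 passed the threshold with DESeq2 (0.24), without libraries 12 and 20 (0.28) and with the depth block (0.24). The cause was not tested.

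With each of the 27 libraries left out in turn, the rho of Oprm1 with Oprk1 ran from 0.252 to 0.415 and with Oprl1 from 0.347 to 0.478, that of Oprl1 with Oprd1 from 0.385 to 0.506 and with Oprk1 from 0.350 to 0.508. The block difference ran from -0.044 to 0.146 (log2) for Oprd1 and from -0.179 to 0.0163 for Oprk1, never called. Genes following Oprd1 numbered 0 to 2045 and those following Oprl1 417 to 2054 (0 and 603 without library 3). Slopes ran from 0.16 to 0.27 for Oprk1 on Oprd1, 0.10 to 0.14 for Oprl1 on Oprd1 and 0.21 to 0.29 for Oprd1 on Oprl1. These refits with a receptor gene as covariate, made for Oprd1 and Oprl1, and the fit with both the block and the lower filter were chosen after seeing the data.

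The order of the receptor levels and its alternatives were not run, because no transcript lengths were given. No paired analysis was possible because all 27 libraries belong to 1 group. Depth limits Oprm1 most, where 14 of 27 libraries had more than 3 reads.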
